A study of Mus musculus with 6 samples.

Results

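The genes described here are 10 markers of T cells and cytotoxic lymphocytes, taken by symbol from a table of 57010 mouse genes: Cd3d, Cd3e, Cd3g, Cd4, Cd8a, Trac, Trdc, Nkg7, Gzma and Gzmb. Each symbol matched 1 row. RNA was sequenced from the skin of 6 wild-type mice at the end of a study of diabetic ulcers, 1 library per mouse. A gel on the skin had carried CST in 3 mice and Yoda1 in 3 mice. CST stands for cortistatin, going by the series title, a neuropeptide of the somatostatin family, and Yoda1 is a synthetic agonist of the mechanically gated channel Piezo1. The labels give the genotype as WT for all 6 mice and give neither the dose, the day of sampling nor how diabetes was induced, and skin without either drug was not analysed here, so each difference sets 1 treatment against the other.

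T cells recognise antigen with a receptor of paired alpha and beta or gamma and delta chains, which signals through the CD3 chains bound to it. Mouse epidermis is known for a resident population of gamma-delta T cells with a dendritic shape, while most alpha-beta T cells of skin lie in the dermis. Killer lymphocytes, both CD8 T cells and natural killer cells, hold granules of serine proteases called granzymes, which they release onto target cells.

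The levels are in FPKM, fragments scaled to gene length and to the mapped depth, so they can be set side by side across genes. The read counts behind them were recovered from the steps of the deposited values, at depths of 23791352 to 29620526 reads per library, and cover counting error only. Keratinocyte markers were abundant in the skin libraries (Krt5 at 2154 ± 401 FPKM in CST and 1888 ± 603 in Yoda1 skin, SD, n = 3 each), and other cell types were present too, so the libraries were read as whole skin although the labels also carry the word keratinocytes. The share of mitochondrially encoded transcripts was 6.72% for CST mouse 1, 7.61% for Yoda1 mouse 3 and 3.25% to 3.81% for the remaining 4 mice. The same 2 libraries had the highest summed FPKM of 12 neutrophil markers, 12006 and 4300, against 892 to 2183 in the rest.

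The stretches from 250 to 66 bases before the RefSeq start of 3 genes are shown because 2 of them, Cd3e of the T cell receptor complex and Nkg7 of the granule membrane, were lowest in Yoda1 mouse 3, the library in which the third, Gzmb, was highest. They come from RefSeq on GRCm38.p6, read 5′ to 3′ on the gene's strand, and 7 of the 10 genes had an entry.
Cd3e, chr9:45009677-45009861, minus strand: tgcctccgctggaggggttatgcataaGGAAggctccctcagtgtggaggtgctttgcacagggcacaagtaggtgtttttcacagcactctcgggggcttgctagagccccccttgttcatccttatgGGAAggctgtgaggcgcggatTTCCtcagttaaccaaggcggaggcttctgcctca
Nkg7, chr7:43436888-43437072, plus strand: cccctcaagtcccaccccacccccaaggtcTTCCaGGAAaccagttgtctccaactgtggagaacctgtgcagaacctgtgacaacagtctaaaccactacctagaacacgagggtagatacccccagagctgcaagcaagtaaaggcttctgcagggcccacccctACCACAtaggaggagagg
Gzmb, chr14:56262400-56262584, minus strand: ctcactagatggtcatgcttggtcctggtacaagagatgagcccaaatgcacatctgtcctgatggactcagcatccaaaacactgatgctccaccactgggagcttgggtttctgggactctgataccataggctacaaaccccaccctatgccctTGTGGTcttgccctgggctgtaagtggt
Capitals mark 3 short motifs searched on both strands: GGAA, the core that ETS factors bind, TGTGGT, of the kind RUNX factors bind, and CACCTG, an E-box. None of the 3 motifs overlapped another in these stretches. GGAA was found 3 times in Cd3e, 2 times in Nkg7 and 0 times in Gzmb, and 87.2% of 32851 promoter windows of the same length held it. TGTGGT was found once each in Nkg7 and Gzmb, against 10.7% of all windows, and CACCTG in none of the 3, against 13.4%. Of the 7 genes with an entry, 6 held GGAA, 2 held TGTGGT and 3 held CACCTG. These matches are letters in a window only.

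The comparison asked whether skin treated with CST and skin treated with Yoda1 held different levels of lymphocyte transcripts. No difference was called for any of the 10 genes: the values of the groups overlapped in all 10, and limma's test across all genes called 0 of the 9 that reached a mean of 1 FPKM (each Benjamini-Hochberg adjusted p = 1.000). The background was the same, with 0% of 14588 genes called. Without adjustment 584 genes had a p under 0.05 (0.788% of all genes lower and 3.21% higher in CST), of which 0 were members. Limma-voom on the recovered reads also called 0 genes, and of its 585 genes with an unadjusted p under 0.05 again 0 were members. The groups did not overlap in 6.59% of all tested genes, 4.52% higher and 2.08% lower in CST. Of the 9 tested members 7 had lower fitted values in CST, with a median log2 change of -0.24, against a median of -0.01 and 52.8% lower over all tested genes. What the genes showed was a spread between mice of up to 7.42-fold, and in 6 of the 10 the lowest library was Yoda1 mouse 3, as it was in 29.1% of all tested genes.

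**Figure D1:**
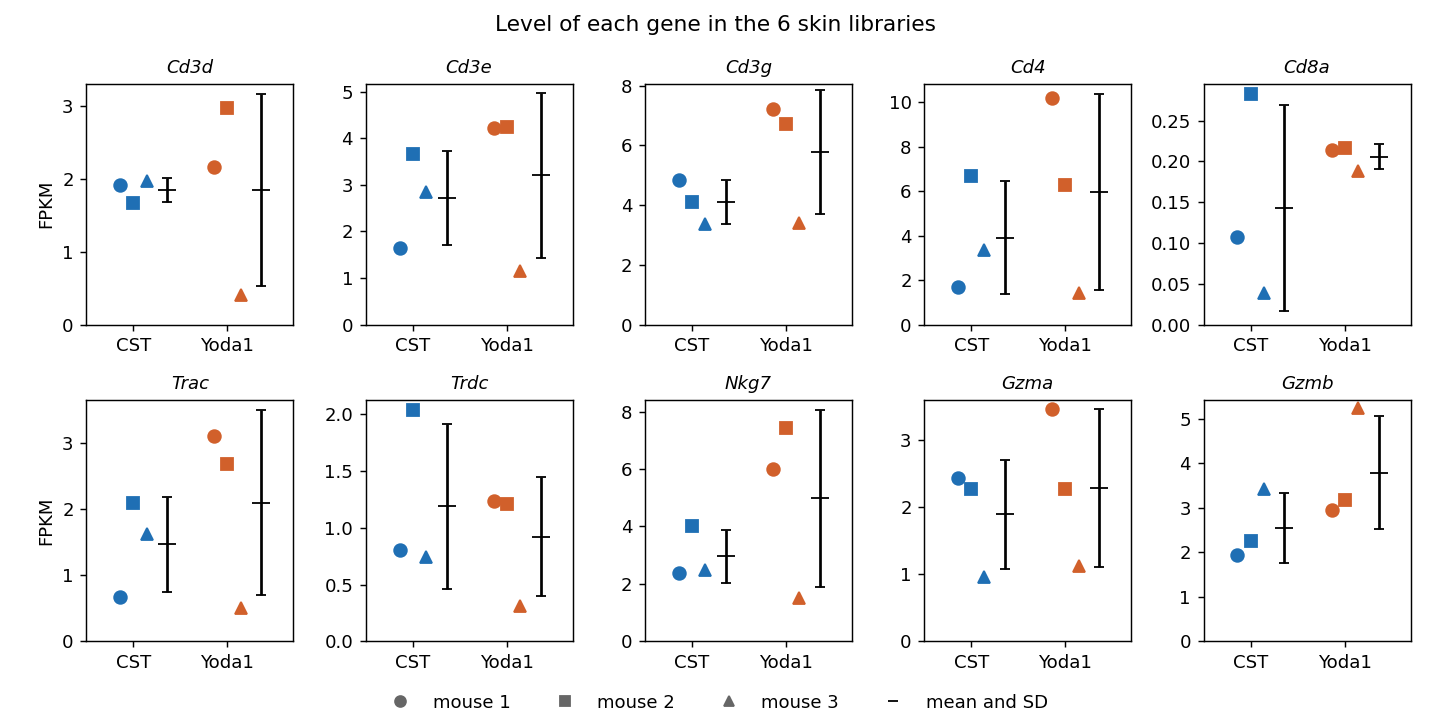
FPKM of each of the 10 genes (vertical axis, linear, from 0) in the 3 CST mice (blue) and the 3 Yoda1 mice (orange), with the mean and SD of each group in black. Yoda1 mouse 3 (orange triangle) is the lowest of the 6 for Cd3d, Cd3e, Cd4, Trac, Trdc and Nkg7 and the highest for Gzmb.

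The CD3 chains, which carry the receptor's signal into the cell, came first. All 3 genes lie within a short stretch of chromosome 9 (Cd3g 44969572 to 44980431, Cd3d 44981786 to 44987339, Cd3e 44998740 to 45009627 on GRCm38, GENCODE M21), and all are protein-coding. Cd3e, the epsilon chain (ENSMUSG00000032093), stood at 1.65, 3.66 and 2.85 FPKM in the CST group (mice 1, 2 and 3, the order used throughout) and at 4.22, 4.24 and 1.16 in the Yoda1 group. Yoda1 mice 1 and 2 were the highest of the 6, and Yoda1 mouse 3 lay below all CST mice. On the log2(FPKM + 1) scale the difference of Cd3e, CST less Yoda1, was -0.10 (SE 0.40), and the log2 changes below are on the same scale.

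Cd3g, the gamma chain (ENSMUSG00000002033), had the highest level of the 3 in every library, at 4.85, 4.09 and 3.38 FPKM in CST and 7.21, 6.70 and 3.39 in Yoda1 mice. Yoda1 mouse 3 fell among the CST values, and the log2 change of Cd3g was -0.36 (SE 0.29). Cd3d, the delta chain (ENSMUSG00000032094), measured 1.92, 1.67 and 1.97 FPKM in CST mice, a narrow range, and 2.16, 2.98 and 0.401 in Yoda1 mice. The low value of Cd3d rested on 7 reads, an FPKM interval of 0.161 to 0.826 (exact Poisson, 95%, counting error only), which lay below the interval of each other library. The group means of Cd3d were the same, 1.85 ± 0.160 in CST and 1.85 ± 1.32 in Yoda1 skin, and its log2 change was 0.13 (SE 0.38). In bulk skin fewer T cells and less RNA per T cell cannot be told apart, for these genes and those below.

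Of the chains of the receptor itself, Trac encodes the alpha constant region (ENSMUSG00000076928, chromosome 14, 54220521 to 54224206) and Trdc the delta constant region (ENSMUSG00000104876, chromosome 14, 54142851 to 54148868); both are annotated as constant gene segments. Trac measured 0.677, 2.09 and 1.63 FPKM in CST and 3.11, 2.68 and 0.499 in Yoda1 mice, from 8 to 62 reads per library. Its order over the mice resembled that of Cd3e, with CST mouse 1 and Yoda1 mouse 3 the lowest. The log2 change of Trac was -0.24 (SE 0.43).

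Trdc, the marker of gamma-delta T cells, measured 0.805, 2.04 and 0.739 FPKM in CST and 1.24, 1.21 and 0.315 in Yoda1 mice. It was highest in CST mouse 2, and its log2 change was 0.18 (SE 0.32). The ratio of Trdc to Trac came to 1.19, 0.975 and 0.452 for the CST mice and to 0.399, 0.451 and 0.632 for the Yoda1 mice. CST mice 1 and 2 had the highest ratios, while CST mouse 3 lay among the Yoda1 mice. The other gamma-delta genes were also present: the gamma constant gene Trgc1 measured 4.21 ± 1.43 FPKM with CST and 3.32 ± 1.59 with Yoda1 (log2 change 0.31, SE 0.35), and Trgc2 0.911 ± 0.360 and 0.794 ± 0.550.

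Variable segments, the parts of the receptor that differ between clones, had few reads. Over 178 segment rows the reads numbered 23, 28 and 31 in CST mice and 91, 29 and 26 in Yoda1 mice, spread over 7 to 28 rows per library. Trdv4, the delta segment known from epidermal gamma-delta T cells, had the most reads of any segment, with 7, 10 and 10 in CST and 16, 7 and 1 in Yoda1 mice. Trgv5, named as the gamma segment of the same cells in one common nomenclature, followed with 10, 1 and 1 reads and 14, 3 and 3. Yoda1 mouse 1 had the highest segment total. Segments share sequence, and the sources used here do not say how shared reads were counted.

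The beta constant genes did not rank with their partner chain. Trbc2 measured 32.0, 43.8 and 53.2 FPKM in CST and 32.6, 45.6 and 56.9 in Yoda1 mice, and Trbc1 6.97, 8.95 and 8.21 and 6.75, 7.92 and 5.65. The log2 change was -0.06 (SE 0.28) for Trbc2 and 0.22 (SE 0.22) for Trbc1. Trbc2 was highest in Yoda1 mouse 3, where Trac, Cd3e and Cd3d were lowest, and the ratio of Trbc2 to Trac ran from 10.5 in Yoda1 mouse 1 to 114 in Yoda1 mouse 3. Trbc1 and Trbc2 are near-identical copies, so how reads were divided between them is uncertain.

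**Figure D2:**
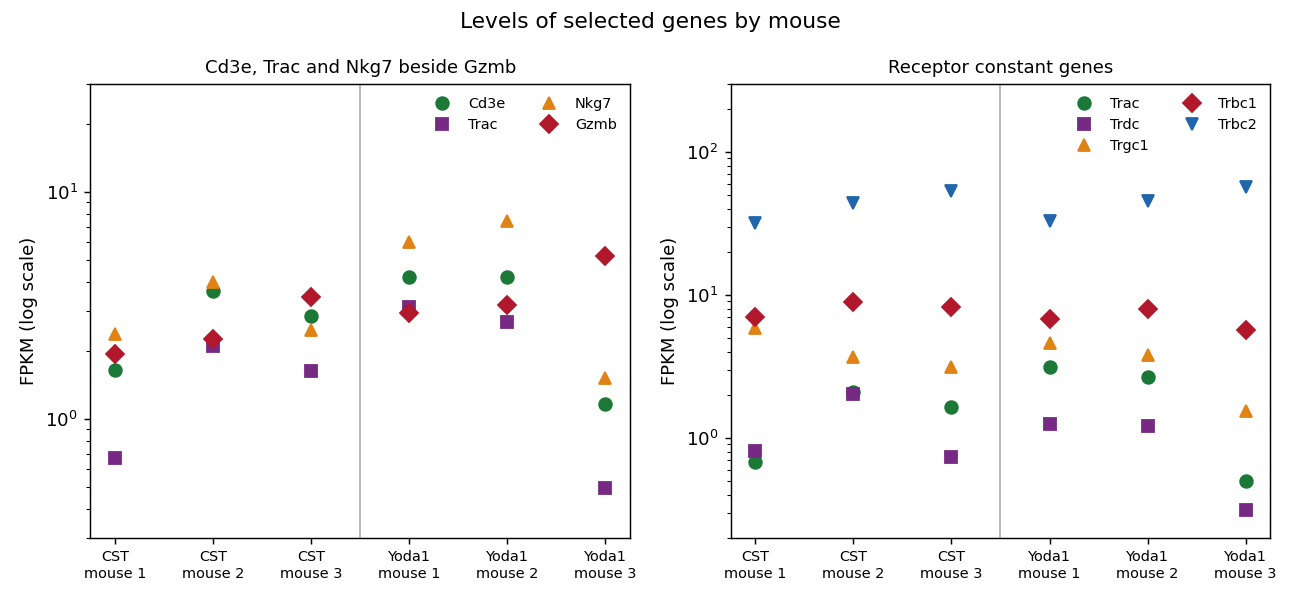
FPKM on a log axis for each of the 6 libraries, CST mice left and Yoda1 mice right of the grey line: Cd3e, Trac, Nkg7 and Gzmb in one panel and the receptor constant genes in the other. In Yoda1 mouse 3 Cd3e, Trac and Nkg7 are at their lowest while Gzmb (5.24) and Trbc2 (56.9) are at their highest.

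The co-receptors tell helper from killer T cells. Cd4 (ENSMUSG00000023274, chromosome 6, 124864692 to 124888221), which in mice marks helper and regulatory T cells, measured 1.71, 6.68 and 3.36 FPKM in CST and 10.2, 6.26 and 1.44 in Yoda1 mice. The CST values lay inside the Yoda1 range, and the 7.10-fold gap between the highest and lowest library lay within the Yoda1 group. Yoda1 mouse 1 stood above the highest CST mouse beyond counting error, with an exact Poisson interval of 9.25 to 11.3 FPKM against 5.87 to 7.57 for CST mouse 2. The log2 change of Cd4 was -0.38 (SE 0.60), the widest error of the 9 tested genes.

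Cd8a (ENSMUSG00000053977, chromosome 6, 71373427 to 71379173), the alpha chain of the killer T cell co-receptor, was the lowest of the 10 genes in every library. It measured 0.108, 0.282 and 0.0385 FPKM in CST and 0.214, 0.216 and 0.188 in Yoda1 mice, from 3 to 21 reads. With a mean of 0.174 FPKM it lay below the filter, and with no filter its log2 change was -0.08 (SE 0.08, limma adjusted p = 1.000). Its partner Cd8b1 measured 0.192 ± 0.200 and 0.422 ± 0.414 FPKM. The ratio of Cd8a to Cd4 lay between 0.0115 and 0.130 in the 6 libraries, so Cd4 was the more abundant co-receptor transcript in each.

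The granule genes followed separate courses. Nkg7 (ENSMUSG00000004612, chromosome 7, 43437073 to 43438249), a granule membrane protein of killer lymphocytes, measured 2.38, 4.03 and 2.47 FPKM in CST and 5.998, 7.43 and 1.51 in Yoda1 mice. Yoda1 mice 1 and 2 stood above all CST mice and Yoda1 mouse 3 below them, and the log2 change of Nkg7 was -0.44 (SE 0.46). Gzma (ENSMUSG00000023132, chromosome 13, 113093825 to 113100981), a trypsin-like granzyme, measured 2.43, 2.27 and 0.955 FPKM in CST and 3.46, 2.26 and 1.12 in Yoda1 mice, with a log2 change of -0.16 (SE 0.35). Gzma was lowest in mouse 3 of each group and highest in Yoda1 mouse 1, and the other 3 libraries lay between 2.26 and 2.43 FPKM.

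Gzmb (ENSMUSG00000015437, chromosome 14, 56258838 to 56262260), the granzyme that cuts after aspartate and activates caspases, measured 1.93, 2.26 and 3.43 FPKM in CST and 2.94, 3.18 and 5.24 in Yoda1 mice. It was highest in Yoda1 mouse 3, on 179 reads (interval 4.50 to 6.07 FPKM), the library with the lowest Nkg7, and lowest in CST mouse 1. CST mouse 3 lay above Yoda1 mice 1 and 2, and the log2 change of Gzmb was -0.43 (SE 0.28). The ratio of Gzma to Gzmb accordingly ran from 1.26 in CST mouse 1 to 0.214 in Yoda1 mouse 3, with values of 1.005 and 0.279 in CST mice 2 and 3 and 1.18 and 0.709 in Yoda1 mice 1 and 2. Prf1, the pore-forming perforin, stood at 0.658 ± 0.104 FPKM in CST and 0.584 ± 0.334 in Yoda1 skin, below the filter.

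By mean over the 6 libraries the order was Cd4 (4.95 FPKM), Cd3g (4.94), Nkg7 (3.97), Gzmb (3.16), Cd3e (2.97), Gzma (2.08), Cd3d (1.85), Trac (1.78), Trdc (1.06) and Cd8a (0.174). Apart from Cd8a, neighbours in that order differed by less than their spread over the mice, and the top gene was Cd4 in 2 libraries, Gzmb in 2, Cd3g in 1 and Nkg7 in 1. This order rests on the gene lengths the authors divided by, which were recovered by fitting to whole reads. The fitted lengths were shorter than the summed GENCODE M21 exons for some genes (1231 against 4080 bases for Cd3e) and equal for others (1436 for Gzmb).

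Leaving out 1 library changed the direction for several genes, and which genes changed depended on the library. Without Yoda1 mouse 3 all 9 tested genes had lower fitted values in CST, with a median log2 change of -0.53, against -0.03 and 54.9% lower over all genes. Limma called 0 genes then too (0% of 14588). Cd3g (log2 change -0.65, SE 0.22, unadjusted p = 0.0218, adjusted p = 0.336) and Nkg7 (-0.98, SE 0.26, unadjusted p = 0.00693, adjusted p = 0.296) were the only members at an unadjusted p under 0.05 in the lower direction, where 6.81% of all genes stood. Cd4 had a log2 change of -1.01 (SE 0.44) and Cd3d moved from 0.13 to -0.31. In 5 of the 10 genes (Cd3d, Cd3e, Cd3g, Trac and Nkg7) all 3 CST mice lay below Yoda1 mice 1 and 2, as in 16.3% of all tested genes. Yoda1 mouse 3 was the lowest library in 6 of the 10 genes, so leaving it out raises the Yoda1 mean of those. The counts and p-values without it therefore follow in part from the choice of library and are no test of the groups. The part of the mitochondrial share and neutrophil transcripts of Yoda1 mouse 3 in these values was not tested. Without CST mouse 1 as well as Yoda1 mouse 3, an alternative chosen after seeing the data, 8 of 9 were lower, with a median of -0.45 and 0 called. Without Yoda1 mouse 1, the library with the most Cd4 and Trac, only 3 of 9 were lower, with a median of 0.09.

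**Figure D3:**
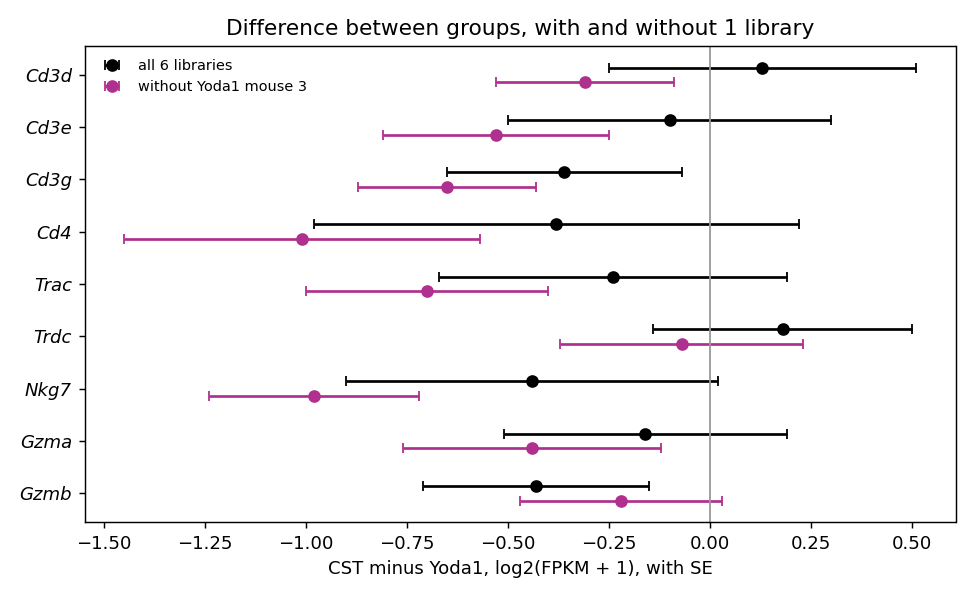
Difference between groups (horizontal axis, log2(FPKM + 1), CST less Yoda1) with its SE, for the 9 tested genes, with all 6 libraries (black) and without Yoda1 mouse 3 (purple). With all libraries Cd3d and Trdc lie above 0, and without that mouse all 9 lie below 0, with none called in either case. Yoda1 mouse 3 was the lowest library for 6 of the genes, so leaving it out shifts those downward.

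Leukocyte content was set beside these genes through Ptprc, the CD45 gene of all leukocytes, which measured 43.2, 24.96 and 13.02 FPKM in CST and 39.6, 33.03 and 20.7 in Yoda1 mice (log2 change -0.30, SE 0.43). The summed FPKM of Cd3d, Cd3e and Cd3g, divided by that of Ptprc, came to 0.195, 0.377 and 0.630 for the CST mice and to 0.344, 0.421 and 0.240 for the Yoda1 mice. CST mouse 1 combined the highest Ptprc with the lowest ratio and CST mouse 3 the reverse. The sum of Nkg7, Gzma and Gzmb over Ptprc came to 0.156, 0.343 and 0.526 for the CST mice and to 0.313, 0.390 and 0.381 for the Yoda1 mice, and the groups overlapped in both ratios. Both ratios rest on Ptprc alone, and the 6 pan-leukocyte genes it was taken from did not share 1 profile. Coro1a, Laptm5, Cd52 and Arhgdib, which many kinds of leukocyte express, were highest in Yoda1 mice 1 and 2 and lowest in Yoda1 mouse 3, as Cd3e and Nkg7 were. Laptm5 measured 221, 282 and 190 FPKM in CST and 464, 575 and 128 in Yoda1 mice, while Cd53, like Ptprc, was highest in CST mouse 1, at 274 FPKM. Of the 6 genes 5 had lower fitted values in CST, with a median log2 change of -0.30 and 0 called, and the part of leukocyte content in the members' values was not tested.

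Further T cell, killer cell and recruitment genes were taken from 10 lists, which include genes that other cells also express. Of their 134 genes outside the 10 members 71 were tested and 0 were called (0% of all genes), 39 being lower and 32 higher in CST by fitted value, with a median log2 change of -0.06. An unadjusted p under 0.05 was found for 2 lower genes, against 0.788% of all genes, and 3 higher genes, against 3.21%. Single libraries moved these counts: without Yoda1 mouse 3, 48 were lower and 23 higher, 15 lower genes standing at an unadjusted p under 0.05, against 6.81% of all genes, and 2 higher ones, against 4.64%. Without Yoda1 mouse 1 the balance turned to 31 lower and 40 higher, and without Yoda1 mouse 2 to 32 and 39. Leaving out any library other than Yoda1 mouse 3 left 1 or 2 lower genes at that p (1 without CST mouse 1 and 1 without CST mouse 3) and 2 to 5 higher ones (2 without CST mouse 1 and 5 without Yoda1 mouse 2). With all 6 libraries the 2 lower ones were Cxcl9 and Cxcl10, chemokines that draw CXCR3-bearing T cells and are known as interferon-induced. Cxcl9 measured 2.49, 3.94 and 3.68 FPKM in CST and 6.71, 8.92 and 7.25 in Yoda1 mice (log2 change -0.99, SE 0.24, limma adjusted p = 0.537), and Cxcl10 15.9 ± 5.32 and 33.1 ± 15.7 (-0.97, SE 0.36, adjusted p = 0.953). For both every CST mouse lay below every Yoda1 mouse, which held for 2.08% of all genes. Ccl5, another T cell chemokine, measured 5.48 ± 0.918 and 9.07 ± 3.08 FPKM and overlapped between groups. A list of 17 type I interferon response genes summed to 392 to 602 FPKM in CST and 737 to 1382 in Yoda1 mice, and its part in the chemokine values was not tested.

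Of the 3 higher ones, 2 are described here, Prkcq and Srgn. Prkcq, a kinase of T cell receptor signalling that skeletal muscle also expresses, measured 7.31 ± 1.71 FPKM with CST and 4.14 ± 0.321 with Yoda1 (log2 change 0.67, limma adjusted p = 0.844). The 12 skeletal muscle markers summed to 6897 to 14309 FPKM in CST and 113 to 5023 in Yoda1 mice, and their part in the Prkcq value was not tested. Srgn, the granule proteoglycan serglycin that neutrophils and mast cells also hold, measured 739 ± 617 and 201 ± 82.6 (1.64, adjusted p = 0.786), with 1450 in CST mouse 1, the library with the highest neutrophil sum.

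By list, with 0 called in each, 6 of 10 tested recruitment chemokines were lower by fitted value (median -0.46), 10 of 15 surface and co-stimulation genes (-0.17), 5 of 9 receptor signalling genes (-0.06) and 12 of 15 cytotoxic granule and killer genes (-0.14), a list that holds Nkg7, Gzma and Gzmb. Among transcription factors 2 of 9 were lower (median 0.18), and among natural killer and innate lymphoid genes 4 of 9 (0.12). Among alpha-beta receptor and CD3 genes 5 of 7 were lower (-0.08), and among gamma-delta genes 1 of 4 (0.21). Of the effector cytokines 1 of 2 was lower (0.07), and Cd4 was the only co-receptor tested (-0.38). The alpha-beta, gamma-delta and co-receptor lists hold members too. Some list genes stood far above Cd3e (1.16 to 4.24 FPKM). Gata3 of the transcription factors ran from 75.98 to 296 FPKM, Areg of the natural killer list from 29.4 to 178 and Lamp1 of the cytotoxic list from 356 to 671. The part of other skin cells in the list counts and medians was not tested. Leaving out 1 library at a time, the median stayed negative for the chemokines (-0.59 to -0.27) and the cytotoxic list (-0.32 to -0.05) and positive for the transcription factors (0.18 to 0.34). It crossed 0 for the signalling list (-0.29 to 0.12, above 0 without CST mouse 1, Yoda1 mouse 1 or Yoda1 mouse 2), the surface list (-0.35 to 0.04, above 0 without CST mouse 3 or Yoda1 mouse 1) and the natural killer list (-0.15 to 0.14, below 0 without CST mouse 1, CST mouse 2 or Yoda1 mouse 3). The median also crossed 0 for the alpha-beta list (-0.33 to 0.11) and the gamma-delta list (-0.05 to 0.34). The same held for the co-receptors (-1.01 to 0.09) and the effector cytokines (-0.11 to 0.2). Lck, the kinase that starts receptor signalling, had a log2 change of -0.06 (SE 0.28), and Cd247, the zeta chain of the receptor complex, -0.08 (SE 0.28). Cd2, an adhesion molecule of T and natural killer cells, measured 1.83, 2.84 and 2.64 FPKM in CST and 7.28, 8.65 and 0.816 in Yoda1 mice (log2 change -0.62, SE 0.59). Its values fell in the same places as those of Nkg7, with Yoda1 mice 1 and 2 highest and Yoda1 mouse 3 lowest.

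Markers of other cells that can hold these transcripts were read in the same libraries. The natural killer receptor gene Ncr1 had 1 to 15 reads per library and Klrb1c 2 to 28, with no more than 0.652 FPKM in any. Other receptor genes of the natural killer list were higher, Klrb1b at 3.08 to 12.2 FPKM, Klrd1 at 2.001 to 11.2 and Klrk1 at 1.29 to 5.23, and the groups overlapped in all 3. Klrd1 and Klrk1 encode receptors that killer T cells also carry. Of the B cell markers, Ms4a1 had 0 to 3 reads and Pax5 0 to 7, while the 10 B and plasma cell genes summed to 11.2 to 33.7 FPKM in CST and 5.44 to 32.5 in Yoda1 mice. The 10 mast cell and basophil genes summed to 213 to 369 FPKM in CST and 127 to 324 in Yoda1 mice, and the 12 macrophage and monocyte genes to 1652 to 2406 and 1543 to 5364. A sum follows its most abundant genes. Of the 8 tested mast cell and basophil genes 4 were lower and 4 higher in CST by fitted value, with a median log2 change of 0.01 and 0 called. Of the 12 tested macrophage and monocyte genes 11 were lower and 1 higher, with a median log2 change of -0.61 and 0 called. Siglech, of plasmacytoid dendritic cells, measured 1.24 ± 0.625 and 1.24 ± 0.159. The part of these cells in the levels of Gzmb, Cd4 and Nkg7 was not tested.

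The tested genes outside the 10 with the profile closest to that of Cd3e over the 6 libraries were Sfxn3, Mgat4b, Hyi, Fkbp1a and Iqce, with a root-mean-square difference of 0.03 to 0.06 in centred log2(FPKM + 1). None of these is known as a T cell marker. Because they were picked as the nearest of all tested genes over 6 values, their small distances follow in part from that choice. The members were not picked so. Adding 1 shrinks the changes of low genes more, so the distances also depend on level. Of the members Trac was closest to Cd3e, at 0.10, followed by Nkg7 (0.26), Trdc (0.29), Cd3d (0.31), Cd4 (0.37), Cd3g (0.38), Gzma (0.44) and Gzmb (0.69), so the partner CD3 chains lay farther from Cd3e than Nkg7 did. Sfxn3, a mitochondrial serine transporter family member, measured 28.7, 49.3 and 42.2 FPKM in CST and 57.3, 54.8 and 22.2 in Yoda1 mice. The closest to Nkg7 was Spi1, a transcription factor of myeloid cells, at 69.4, 103 and 65.1 and 138, 170 and 51.7 FPKM (difference 0.05), followed by Plod1, Eln, Sting1 and Gm36107. The closest to Gzmb were Amigo3, Gm11808, Itpk1, Gm11496 and Gm7850 (0.09 to 0.13), while its distance to the other tested members was 0.58 to 0.97.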

How the data were processed

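The authors deposited 1 table of FPKM values per gene for 6 libraries, with symbols and positions and no counts. The submitters' processing notes name GRCm38 and mm10; the sources used here name no aligner, counter or strandedness. Printed positions come from GENCODE M21 (GRCm38) by Ensembl identifier. Depth was recovered from the FPKM steps. Each gene's length was the GENCODE M21 exon length where that gave whole reads in every library (11366 genes). Otherwise it was the smallest length that did. All 30697 genes above 0 (100.00%) gave whole reads within 0.001 reads, with a rounding margin in proportion for deep genes. With wrong depths and the same lengths 0 of 500 did. Because the lengths were fitted to the recovered depths, neither result tests those depths. Groups were compared on log2(FPKM + 1) with limma 3.58.1 (R 4.3.3, trended prior variance, two-sided, Benjamini-Hochberg adjusted, threshold 0.05) over the 14588 genes averaging 1 FPKM or more; a fold change on this scale understates the change of low genes. Limma was also run on simulated counts, with the same relative spread set for all genes and no outlying mouse. That run does not show what difference could be detected in these libraries. Exact permutation of 3 against 3 cannot go below p = 0.1, so ratios are described without a test. Groups follow the sample titles, which number separate mice. The members and gene lists were chosen with earlier results of these data known. Named beside the 10 members were fixed receptor and marker genes, and up to 4 genes per list by smallest p. The 5 genes nearest to Cd3e, Nkg7 and Gzmb in profile were also named. Lck, Cd2, Ncr1, Klrb1c, Ms4a1, Pax5, Trdv4 and Trgv5 come from the marker list. The ranking of Trdv4 and Trgv5 by reads was made from their values. Lamp1, Klrb1b and the pan-leukocyte genes other than Ptprc were named after their values were seen. Tcrg-type symbols were matched as Trgc and Trgv. The values of 1 further list gene are not reported here.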

Additional observations from a re-analysis of the deposited data

How the results depend on the processing

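Under all 15 alternatives 0 members were called (Cd8a was tested only with the lower filter or none), and 0 to 136 genes in all when 1 library was left out (8 without CST mouse 2 and 136 without Yoda1 mouse 2). Leaving out 1 library moved the log2 change across 0 for Cd3d (-0.31 to 0.44), Cd3e (-0.53 to 0.12), Cd4 (-1.01 to 0.09), Trac (-0.70 to 0.02), Trdc (-0.08 to 0.33) and Gzma (-0.44 to 0.10), so no direction is given for these genes. Cd3g (-0.65 to -0.20), Nkg7 (-0.98 to -0.11) and Gzmb (-0.60 to -0.22) kept a negative value. The median of the natural killer list ran from -0.15 to 0.14. Without CST mouse 1 and Yoda1 mouse 3 the change of Cd3d was -0.33, and the list medians were 0.38 for T cell transcription factors, -0.14 for natural killer and innate lymphoid genes and -0.24 for lymphocyte effector cytokines, of which 2 genes were tested; the cause was not tested. Pseudocount, filter, scaling and trend changed the sign of none of the 9 tested members. The natural killer median (0.12) became -0.01 with the lower filter, with no filter and with quantile normalization, and that of the effector cytokines (0.07) -0.01 with the lower filter and -0.02 with quantile normalization. With the mouse number as a replicate block 0 genes were called, 680 stood at an unadjusted p under 0.05, and Cd3e had a log2 change of -0.10 and Nkg7 -0.44; the deviations of same-numbered mice correlated at -0.077, 0.208 and -0.197, so the numbers were not taken to pair the mice. Depth limits Cd8a, with 3 to 21 reads per library, Trac and the variable segments.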
